A study of Homo sapiens with 24 samples.

Results

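The difference between 2 head and neck squamous carcinoma cell lines in their response to irradiation was measured by RNA sequencing of FaDu and SAS spheroids, with and without irradiation (RT). Its 12 libraries are 12 of the 24 in the series, 3 for each of FaDu control, FaDu RT, SAS control and SAS RT, taken by the line and treatment that the labels give. The quantity of interest is an interaction: the RT effect in FaDu minus the RT effect in SAS, both on the log2 scale. A positive value means that the RT effect was the higher of the 2 in FaDu, and a negative value that it was the higher in SAS. A higher effect can be a stronger increase or a weaker decrease, so it is not always the larger change. FaDu spheroids received a single dose of 7 Gy and SAS spheroids 10 Gy, so line and dose cannot be told apart.

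FaDu derives from a carcinoma of the hypopharynx and SAS from a carcinoma of the tongue, and each is a single established line, so 3 libraries per group stand for repeats of a line and not for patients. Spheroids formed in agarose-coated wells and were treated on day 4, at a diameter near 400 µm in either line. RNA was taken 0.5 h later. The other 12 libraries received hyperthermia (HT, 42.5 °C for 60 min) alone or with the same RT doses, and they serve here to repeat the same difference in heated spheroids. The study chose the doses to give the lines a comparable radiation response.

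Total counts ranged from 16666024 to 23481395 over the 12 libraries, with a median of 18378943. By group, they ran from 17690374 to 21862472 (median 17763912) in FaDu controls and from 16666024 to 23481395 (median 18149790) after RT. In SAS they ran from 17797336 to 19645956 (median 18201500) in controls and from 18556387 to 19831372 (median 19253563) after RT. Levels are given as CPM, the count of a gene relative to the size of its library, with sizes scaled over all 24 libraries.

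Ionizing radiation breaks both strands of DNA, and the kinase ATM, in the nucleus, and the MAP kinases pass the signal on within minutes. Immediate early genes such as FOS, EGR1 and CYR61 answer first, because the factors that switch them on are already present in the cell, and phosphatases of the DUSP family then shut the MAP kinases off again. NF-kappaB targets follow on a similar time scale, whereas the products of p53 target genes and of cell cycle arrest build up over hours.

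SMAD4, a signal carrier of the TGF-beta pathway that is deleted in FaDu, had 0 counts in each of the 6 FaDu libraries, and 1065, 906 and 902 counts in the SAS controls and 945, 1003 and 1042 after RT. Nothing in SMAD4 contradicts the lines that the labels give. Of 14 markers of squamous epithelium, 14 of 14 had at least 10 CPM in FaDu and 14 of 14 in SAS. Their summed level ran from 13338 to 15661 CPM over the FaDu libraries, with KRT17 the most abundant at a mean of 4372 CPM, and from 12879 to 14193 CPM in SAS, with KRT8 at 4187 CPM.

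Markers of other cell types were low. The 8 fibroblast markers summed to 34.8 to 48.5 CPM in FaDu, of which COL1A1 gave a mean of 41.8 CPM while LUM had no count, and to 1.77 to 2.71 CPM in SAS. The 8 leukocyte markers summed to 8.56 to 10.1 CPM in FaDu and 9.07 to 11.2 CPM in SAS. Among these, CD14 was the most abundant in both lines, at 5.63 and 7.93 CPM, and CD3D had no count in either, nor had PTPRC in SAS. The 6 endothelial markers summed to 6.63 to 8.73 CPM in FaDu and 11 to 23.6 CPM in SAS, with CDH5 the most abundant, at 4.12 and 15.4 CPM, and KDR without a count. The study describes its spheroids as mono-cultures, seeded from cells of the given line, so the design adds no fibroblasts, leukocytes or endothelial cells. Counts of these markers are therefore read as RNA of the carcinoma cells, although their source within the spheroids was not tested.

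FaDu replicate 1 stood apart. For pairs of libraries within a group, the chi-square per gene (which is near 1 when only the sampling of reads separates 2 libraries) was 15.9 and 15.1 between FaDu control replicate 1 and replicates 2 and 3, but 3.51 between replicates 2 and 3. After RT the same values were 16.2 and 16.1 against 3.74. In SAS they lay between 4.61 and 10.3. Over the tested genes, the deviations of control and RT libraries from their group means correlated at 0.211 to 0.563 for libraries of the same replicate number in FaDu and at 0.19 to 0.292 in SAS. Libraries of different number gave -0.44 to 0.271 in FaDu, where numbers 2 and 3 also went together, and -0.232 to 0.022 in SAS. These are correlations across genes, which are not independent replicates. Deviations from a group mean cancel out, so the values for different numbers follow in part from those for the same number. The study names the replicates independent experiments, and whether a number marks a shared day is not given. Results are therefore reported without a block and, where it changes them, with a block for replicate number, and without FaDu replicate 1 where they rest on it.

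The interaction asks which genes the lines answered differently. Under edgeR's quasi-likelihood test, a gene was called altered at a Benjamini-Hochberg adjusted p under 0.05 and an absolute log2 value over 1. Of 16811 genes tested, 0 (0.0%) were altered in the interaction. At an unadjusted p under 0.05, 243 genes (1.45%) had a higher RT effect in FaDu and 217 (1.29%) in SAS, and DESeq2 called 1 gene altered, CYR61. An adjusted p under 0.05, whatever the size, was reached by 1 gene, PIM1. With the replicate block, 18 genes (0.107%) reached an adjusted p under 0.05, 11 of them with the higher effect in FaDu and 7 in SAS, and 2 of the 18 (0.0119% of the genes tested) were altered, CYR61 and DUSP1. Leaving out FaDu RT replicate 1 gave 1 altered gene, DUSP1, and each of the other 11 libraries left out in turn gave 0. CYR61 and DUSP1 fall within the rule for naming genes, whereas most of the other genes called with the block were named after their values had been seen.

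The RT effects within each line, from the same fit, were small in number. In FaDu, 6 of 16811 genes (0.0357%) were altered, all of them higher after RT: CYR61, CSRNP1, NFKBIZ, LINC00641, RHOB and CXCL2. This count was 3 without FaDu control replicate 1, 3 without FaDu control replicate 2, 1 without FaDu control replicate 3, and 6 or 7 without any other library. CYR61 was among the altered genes each time. At an adjusted p under 0.05 alone, 20 genes (0.119%) passed in FaDu, but 6, 6 and 2 without control replicates 1, 2 and 3 of FaDu, 10 without FaDu RT replicate 2 and 9 without FaDu RT replicate 3. In SAS, 0 genes (0.0%) were altered by edgeR, with 1003 at an unadjusted p under 0.05, while DESeq2 called 8. The smallest adjusted p in SAS was 0.0532, just past the threshold. Leaving out FaDu control replicate 1 gave 2 altered genes in SAS, leaving out FaDu RT replicate 1 gave 8, and leaving out SAS RT replicate 3 gave 2. A FaDu library can move a SAS count because all 4 groups share their estimate of the spread between replicates. The counts of 6 and 0 do not show a difference between the lines, which only the interaction tests.

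The replicate block gave more calls in each line, and how the lines compared in number changed when FaDu replicate 1 was left out. In FaDu, 246 genes (1.46%) reached an adjusted p under 0.05 and 29 (0.173%) were altered, 27 higher and 2 lower. In SAS, 259 genes (1.54%) reached an adjusted p under 0.05 and 27 (0.161%) were altered, 22 higher and 5 lower. With both FaDu libraries numbered 1 left out of the blocked fit, 177 genes in FaDu and 428 in SAS reached an adjusted p under 0.05, and 16 and 48 were altered. That fit holds fewer libraries of FaDu than of SAS and estimates the spread anew, so its counts do not compare the lines. Of the lists from all libraries, 88 genes were shared, 35.8% of the FaDu list and 34.0% of the SAS list. The sign was the same in 87 of the 88, and the RT effect was the larger in size in FaDu for 44 of them. Their median RT effect was 0.44 in FaDu and 0.46 in SAS. The genes altered in both lines numbered 7 (24.1% of the FaDu list and 25.9% of the SAS list): CTGF, CXCL2, DUSP2, EGR1, FOSB, NFKBIZ and the mitochondrial transfer RNA gene MT-TT. Across all 16811 genes the RT effects in FaDu and SAS, which share no library, correlated at 0.095, and across the 8528 genes with a mean log2 CPM of at least 4 at 0.31. Genes are not independent replicates, and no test was attached to these values.

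**Figure D1:**
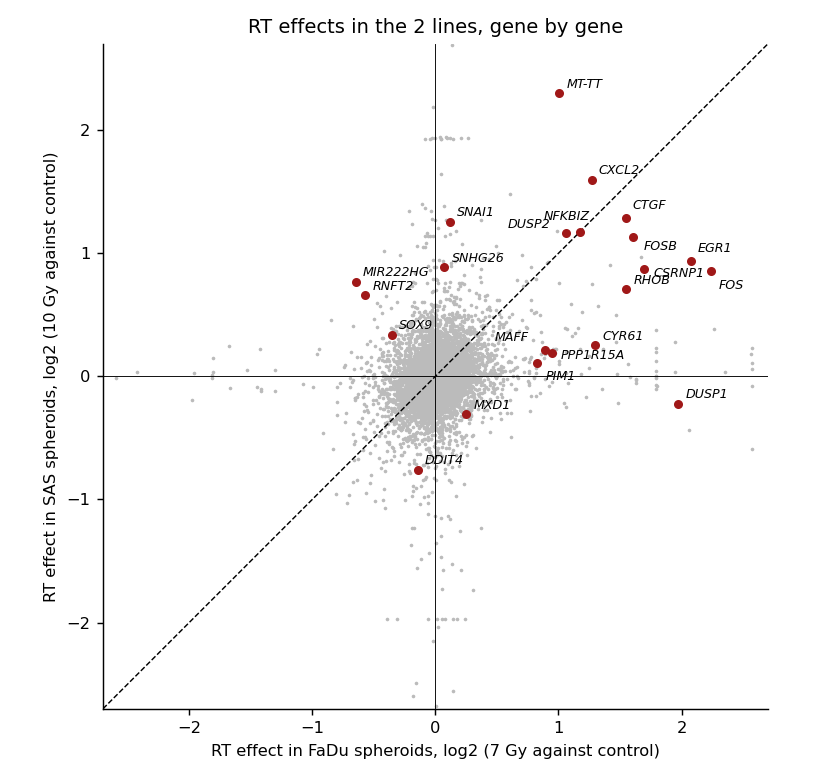
RT effect in FaDu (horizontal axis, log2, 7 Gy against control) against the RT effect in SAS (vertical axis, log2, 10 Gy against control) for 12825 genes with a mean log2 CPM of at least 1, a further 39 lying outside the axes, each point 1 gene and the dashed line equal effects. NFKBIZ lies near the dashed line at an effect of 1.17 in SAS, whereas CYR61, PIM1 and DUSP1 lie to the right of it, with effects between -0.22 and 0.26 in SAS.

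The mean of both RT effects averages over the lines, and a gene can pass it through 1 line alone. It gave 18 altered genes (0.107% of 16811), 16 of them higher after RT and 2 lower (ZNF436-AS1 and ZNF506, the latter through few counts in SAS only). At an adjusted p under 0.05 alone, 96 genes (0.571%) passed, 60 higher and 36 lower, and with the replicate block 573 (3.41%). The altered count was 8 without FaDu control replicate 2, 9 without FaDu control replicate 3, 9 without SAS control replicate 1, 11 without SAS control replicate 2, 11 without SAS RT replicate 1 and 7 without SAS RT replicate 2. Leaving out any of the other libraries gave 13 to 17. The count at an adjusted p under 0.05 alone was lower by more than a factor of 1.5 without FaDu control replicate 2 (43), FaDu control replicate 3 (38), FaDu RT replicate 2 (56), FaDu RT replicate 3 (48), SAS control replicate 1 (51), SAS RT replicate 1 (62) or SAS RT replicate 2 (37).

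NFKBIZ, which encodes a nuclear regulator of NF-kappaB, had the smallest p of the mean effect. It stood at 20.4, 23.2 and 20.4 CPM in the FaDu controls and 51.4, 48.02 and 44.99 CPM after RT, and at 4.17, 5.76 and 6.28 CPM in the SAS controls and 10.2, 16.4 and 9.71 CPM after RT. The RT libraries were above the controls in both lines, with no overlap, and the level in SAS was the lower. Its RT effect was 1.17 ± 0.16 in FaDu (mean ± SE on the log2 scale, n = 3 per group, edgeR adjusted p 0.00913) and 1.17 ± 0.19 in SAS (adjusted p 0.0532), so that the difference was 0.0018. The FaDu adjusted p was 0.0965 without FaDu control replicate 3 (range over 20 alternative settings 2.39e-22 to 0.0965), and the SAS adjusted p was 0.0291 without FaDu RT replicate 1 and 0.0493 without SAS RT replicate 3. Over the same alternatives, the SAS adjusted p ran from 6.42e-14 to 0.303.

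DUSP2, a nuclear phosphatase of MAP kinases, stood at 2.05, 2.09 and 1.65 CPM in the FaDu controls and 6.89, 2.19 and 3.05 CPM after RT, and at 24.9, 32.4 and 36.6 CPM in the SAS controls and 70.05, 71.9 and 68.04 CPM after RT. All 3 SAS RT libraries were above all 3 controls, and in FaDu the only library far above the controls was RT replicate 1. The RT effect was 1.06 ± 0.34 in FaDu and 1.16 ± 0.21 in SAS. With the replicate block DUSP2 was altered in both lines. With both FaDu libraries numbered 1 left out of that fit, it passed an adjusted p of 0.05 in SAS but not in FaDu. Without the block, neither effect passed an adjusted p of 0.05 in its own line, and the difference was -0.10 ± 0.41. Without FaDu RT replicate 1, the effect in FaDu was 0.48 and the difference -0.69, so the near equality rested on that library. The SAS adjusted p was 0.0602 with all libraries and 0.00102 without FaDu RT replicate 1, within a range of 5.01e-24 to 0.357 over the alternatives.

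CTGF, a matrix-associated protein of the same family as CYR61, stood at 0.631, 1.23 and 1.93 CPM in the FaDu controls and 4.06, 4.10 and 3.36 CPM after RT, and at 7.06, 10.3 and 10.4 CPM in the SAS controls and 17.7, 27.1 and 23.1 CPM after RT. All 3 RT libraries were above all 3 controls in each line. The difference between lines was 0.26 ± 0.38, and went from -0.049 without FaDu control replicate 1 to 0.74 without FaDu control replicate 3. CXCL2, a chemokine that draws neutrophils, likewise had no overlap between RT and control in either line, with a difference of -0.33 ± 0.34, which went from -0.62 without SAS control replicate 3 to -0.078 without SAS control replicate 1. CSRNP1 (a nuclear protein induced by stress signals) and RHOB (a GTPase of the cytoskeleton) had positive differences, 0.83 ± 0.27 and 0.84 ± 0.34. Both shrank without FaDu RT replicate 1, to 0.56 and 0.37.

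PIM1, a serine/threonine kinase that promotes survival and is itself switched on at the level of its gene, was the gene with the smallest p of the interaction. It stood at 16.8, 17.5 and 15.1 CPM in the FaDu controls and 29.4, 28.7 and 29.2 CPM after RT, and at 140.4, 146 and 147 CPM in the SAS controls and 158, 146 and 162 CPM after RT. In FaDu the RT libraries lay close together and all above the controls, while in SAS the groups overlapped at 146 CPM. PIM1 rose by 0.82 ± 0.070 in FaDu (edgeR adjusted p 1.60e-04), and the effect in SAS was 0.11 ± 0.062 (adjusted p 0.929). The difference was 0.72 ± 0.093, with an adjusted p of 0.0318, short of the log2 value of 1 that an altered gene needs.

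The size of the PIM1 difference held over 20 alternative settings, from 0.66 to 0.76, but its adjusted p ran from 2.70e-06 to 0.159 and was under 0.05 in 11 of them. With the replicate block it was 9.07e-05. Of the 12 libraries left out in turn, 3 kept it under 0.05, at 0.0403 without FaDu control replicate 2, 0.0392 without FaDu RT replicate 1 and 0.0484 without SAS RT replicate 3. It was 0.0754 without FaDu control replicate 1, 0.139 without FaDu control replicate 3, 0.108 without FaDu RT replicate 2 and 0.159 without FaDu RT replicate 3. In SAS it was 0.104, 0.141 and 0.123 without control replicates 1, 2 and 3, 0.118 without RT replicate 1 and 0.123 without RT replicate 2. The scale bears on the difference, since the SAS control level was 8.78 times the FaDu control level. In CPM, the mean increase was 12.6 in FaDu and 11.1 in SAS, a comparison that was not tested.

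**Figure D2:**
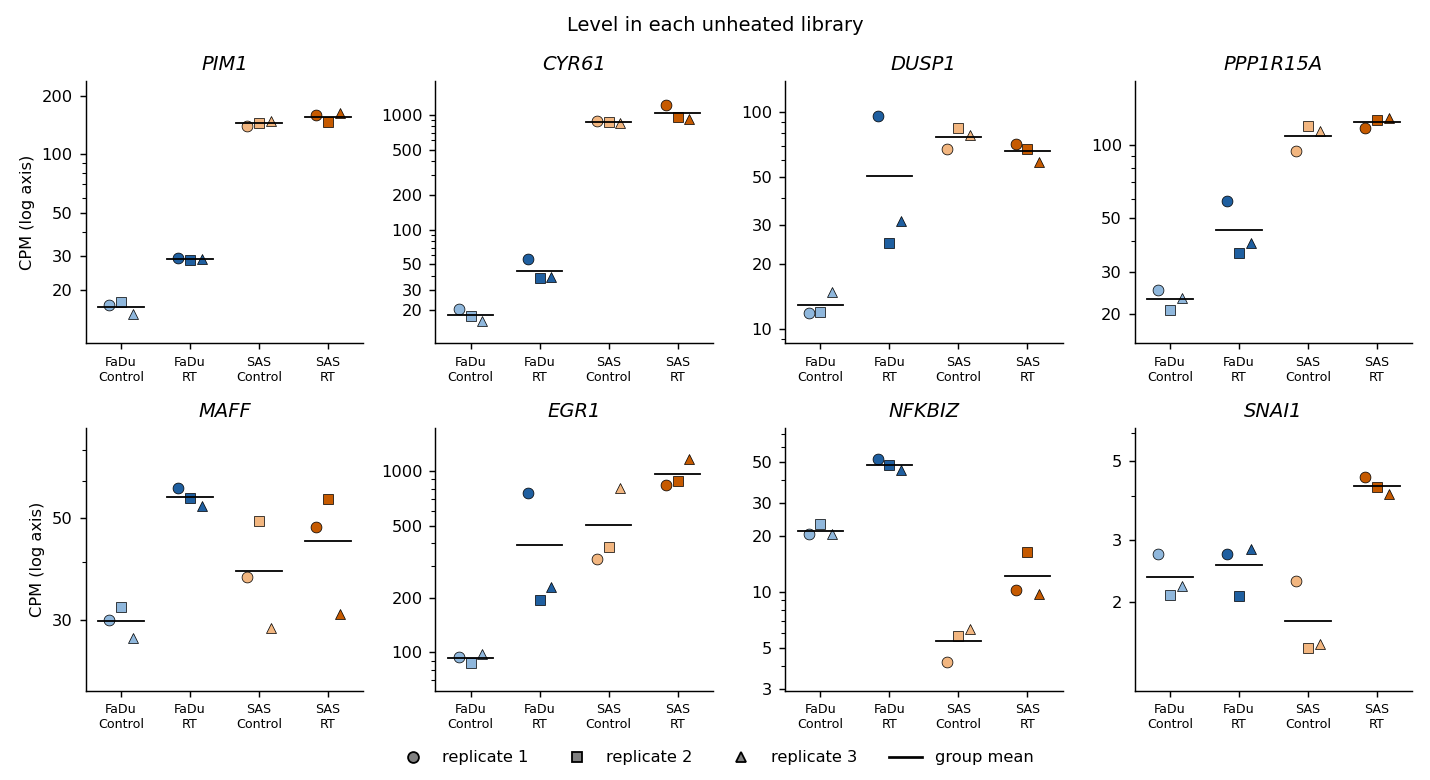
CPM (log axis) of PIM1, CYR61, DUSP1, PPP1R15A, MAFF, EGR1, NFKBIZ and SNAI1 in the 12 unheated libraries, with replicates 1, 2 and 3 as circles, squares and triangles and a line at each group mean. FaDu RT replicate 1 lies far above the other FaDu RT libraries for DUSP1 (96.5 CPM) and EGR1 (755 CPM) but not for PIM1 (29.4 CPM).

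CYR61, a secreted protein of the matrix and an immediate early gene, stood at 20.3, 17.6 and 15.9 CPM in the FaDu controls and 55.6, 37.9 and 38.6 CPM after RT, and at 879, 876 and 846 CPM in the SAS controls and 1223, 966 and 917 CPM after RT. RT and control did not overlap in either line, and in SAS the distance came mostly from RT replicate 1. CYR61 rose in FaDu by 1.29 ± 0.15 (edgeR adjusted p 0.00318), and the effect in SAS was 0.26 ± 0.13 (adjusted p 0.880). The difference was 1.04 ± 0.20 with an adjusted p of 0.871. With the replicate block it was 1.04 ± 0.094 with an adjusted p of 5.79e-07, and DESeq2 without the block gave an adjusted p of 0.00157. With both FaDu libraries numbered 1 left out, the difference was 0.95 with the block and 0.93 without it. Both lie short of the log2 value of 1 that an altered gene needs. Over 20 alternatives the adjusted p ran from 1.97e-20 (no filter for low counts, given no weight) to 1 and was under 0.05 in 6. The log2 difference ran from 0.84 (without FaDu RT replicate 1) to 1.18.

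On the linear scale the order of the lines was the opposite for CYR61. The SAS control level was 48.3 times that of FaDu, and the mean increase after RT was 26.1 CPM in FaDu and 169 CPM in SAS. A higher log2 effect in FaDu thus stood beside a smaller increase in transcripts, and the interaction test addresses only the log2 scale.

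DUSP1, a nuclear phosphatase that switches off the MAP kinases p38 and JNK, had the largest log2 difference of the 20 genes with the smallest p in either direction, ZNF506 apart. It stood at 11.9, 11.9 and 14.8 CPM in the FaDu controls and 96.5, 24.99 and 31.4 CPM after RT, and at 67.7, 84.7 and 78.1 CPM in the SAS controls and 71.6, 67.3 and 59.04 CPM after RT. The FaDu RT libraries were all above the FaDu controls, replicate 1 by far the most, and the SAS groups overlapped with lower values after RT. The effect was 1.97 ± 0.37 in FaDu and -0.22 ± 0.34 in SAS, and the difference 2.19 ± 0.50 (edgeR adjusted p 0.9999).

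The DUSP1 call depended on FaDu RT replicate 1. Without that library the difference was 1.35 with an adjusted p of 0.0197, and with both FaDu libraries numbered 1 left out it was 1.29 with an adjusted p of 0.0242. The replicate block gave 1.99 ± 0.26 with an adjusted p of 3.02e-04. DESeq2 gave an adjusted p of 0.957. Over the 20 alternatives the adjusted p ran from 2.54e-58 (no filter for low counts, given no weight) to 1, with 5 under 0.05. So a value that shrank when the highest library was removed was at the same time better separated from the spread between replicates. In FaDu alone, the adjusted p of the RT effect was 0.0746, and it was 0.00163 without FaDu RT replicate 1 and 0.0197 without FaDu RT replicate 2, in a range of 1.26e-86 to 0.314.

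Of the other genes that passed with the replicate block, PPP1R15A encodes a subunit that brings a phosphatase to eIF2-alpha and restarts translation after stress. It stood at 25.1, 20.8 and 23.3 CPM in the FaDu controls and 58.7, 35.9 and 39.3 CPM after RT, and at 94.5, 119.9 and 114 CPM in the SAS controls and 118, 127 and 129 CPM after RT. All FaDu RT libraries were above the controls, replicate 1 the most, and the SAS groups overlapped. The effect in FaDu was 0.95 ± 0.15 (adjusted p 0.0230, but 0.0575, 0.146 and 0.134 without FaDu control replicates 1, 2 and 3, range over the alternatives 3.08e-23 to 0.146). The difference was 0.76 ± 0.20 without the block (adjusted p 0.9999) and 0.73 ± 0.10 with it (adjusted p 5.57e-04), and its adjusted p ran from 6.60e-07 to 1 over the alternatives.

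MAFF, a small Maf protein that pairs with other leucine zipper factors, stood at 30.04, 31.97 and 27.4 CPM in the FaDu controls and 57.9, 55.05 and 53.1 CPM after RT, and at 37.2, 49.2 and 28.8 CPM in the SAS controls and 47.8, 54.9 and 30.9 CPM after RT. The FaDu groups were apart, and in SAS each RT library was above the control of the same number although the groups overlapped. The difference was 0.68 ± 0.26 without the block (adjusted p 0.9999) and 0.68 ± 0.096 with it (adjusted p 5.65e-04, range over the alternatives 1.04e-04 to 1).

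Other genes with the higher effect in FaDu under the block included SGK1 (a kinase induced by serum and steroid hormones), IER3 (an immediate early gene of survival signalling), DDIT4 (an inhibitor of mTORC1), MXD1 (a partner of MAX that opposes MYC) and CLDN4 (a tight junction protein). The blocked differences of these 5 ran from 0.37 for CLDN4 to 0.62 for IER3. They did not share a pattern within the lines. DDIT4 stood at 273, 128 and 132 CPM in the FaDu controls and 263, 106 and 114 CPM after RT, and at 91.05, 94.4 and 86.4 CPM in the SAS controls and 70.05, 43.4 and 47.6 CPM after RT, where the SAS libraries were all lower after RT and the FaDu libraries overlapped. With the block DDIT4 fell in SAS, by 0.78 ± 0.082 (adjusted p 2.11e-06, range over the alternatives 1.14e-17 to 1), so here the larger change was in SAS. MXD1 stood at 26.1, 23.4 and 25.4 CPM in the FaDu controls and 33.4, 28.9 and 26.9 CPM after RT, and at 24.1, 26.5 and 24.1 CPM in the SAS controls and 19.9, 20.9 and 19.6 CPM after RT. Its RT libraries lay above the controls in FaDu and below them in SAS.

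The 7 genes with the higher effect in SAS under the block were SOX9, TNS4, CCDC85B, ZFP36L2, MT-CO3, MT-ND4 and the pseudogene MTCO1P12, which is close in sequence to a mitochondrial gene, so that its counts may be shared with it. SOX9, a transcription factor of epithelial progenitors, stood at 21.9, 10.4 and 14.7 CPM in the FaDu controls and 18.2, 8.21 and 10.4 CPM after RT, and at 69.4, 87.6 and 64.1 CPM in the SAS controls and 90.8, 109 and 80.4 CPM after RT. Each FaDu RT library was below, and each SAS RT library above, the control of the same number, while the groups as such overlapped in both lines. With the block its effect was -0.37 ± 0.082 in FaDu (adjusted p 0.0150, range 0.0150 to 1) and 0.34 ± 0.059 in SAS (adjusted p 0.00164, range 5.64e-05 to 1), the 1 gene of the 88 shared ones with opposite signs. Its difference was -0.71 ± 0.10 with the block (adjusted p 5.65e-04) and -0.69 ± 0.36 without it (adjusted p 0.9999), in a range of 4.21e-05 to 1 over the alternatives.

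ZFP36L2, a protein that binds messenger RNAs and hastens their decay, stood at 34.9, 44.2 and 46.3 CPM in the FaDu controls and 38.00, 36.3 and 42.6 CPM after RT, and at 73.4, 80.9 and 65.2 CPM in the SAS controls and 103, 100.5 and 86.3 CPM after RT. The SAS groups were apart and the FaDu groups overlapped. Its difference was -0.50 ± 0.15 without the block and -0.50 ± 0.093 with it. When both FaDu libraries numbered 1 were left out of the blocked fit, 18 of the 18 genes kept the sign of their difference and 17 kept an adjusted p under 0.05, the exception being MXD1 with an adjusted p of 0.117 (range over its alternatives 0.0485 to 1). That fit uses the remaining libraries of the same experiment and is no independent repeat. It also leaves fewer residual degrees of freedom than the block with all libraries. Its adjusted p therefore leans on a spread pooled over genes, and the count of 17 does not measure robustness.

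Promoters were read for the genes called with the block, whose differences go in both directions, to show what their sequences hold. The RefSeq table used (build GRCh38.p14) gives 35116 windows of 250 bases upstream of a transcription start for 27305 genes, and 9 of the 18 genes called with the block matched it by symbol, with 12 windows. A cyclic AMP response element, TGACGTCA on either strand, occurred in 3 of these 12 windows (25% of them), those of DUSP1, PPP1R15A and MAFF, against 578 of all 35116 windows (1.65%) and 382 of the 16491 windows of tested genes (2.32%). The AP-1 motif TGANTCA occurred in 1 of the 12, that of CLDN4 (6.57% of all windows), the TEAD motif GGAATG in 0 (11.9%), a kappaB site in 1, that of MAFF (9.96%), and a CArG box in 0 (1.16%). MAFF has 2 start sites, and its kappaB site is in the window without the response element. A match describes the letters only. CYR61, IER3, MT-CO3, MT-ND4, MTCO1P12, SOX9, TNS4 and ZFP36L2 were among those not in the table.

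The sequences of the 3 promoters with the element are shown because their genes each had the higher effect in FaDu, with that of PIM1, which holds none of the 5 motifs, each written 5′ to 3′ in the direction of transcription. Capitals mark the response element. DUSP1 lies at chr5:172771196-172771445 on the minus strand, PPP1R15A at chr19:48872171-48872420, MAFF at chr22:38201744-38201993 and PIM1 at chr6:37169902-37170151, these on the plus strand. The first base of the element is at -125 from the start site in DUSP1, -58 in PPP1R15A and -54 in MAFF. For MAFF the window with the element is shown, and the window of its other start site, at chr22:38202770-38203019, lacks it.
DUSP1: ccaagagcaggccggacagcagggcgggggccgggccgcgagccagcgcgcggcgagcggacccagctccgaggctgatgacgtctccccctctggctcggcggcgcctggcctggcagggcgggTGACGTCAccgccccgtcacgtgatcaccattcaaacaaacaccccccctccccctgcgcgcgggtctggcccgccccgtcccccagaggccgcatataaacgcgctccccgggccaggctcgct
PPP1R15A: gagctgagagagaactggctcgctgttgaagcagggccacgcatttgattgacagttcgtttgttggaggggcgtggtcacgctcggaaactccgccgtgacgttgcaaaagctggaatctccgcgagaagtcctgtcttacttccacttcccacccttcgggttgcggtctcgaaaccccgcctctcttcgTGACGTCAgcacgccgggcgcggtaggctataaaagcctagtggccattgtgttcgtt
MAFF: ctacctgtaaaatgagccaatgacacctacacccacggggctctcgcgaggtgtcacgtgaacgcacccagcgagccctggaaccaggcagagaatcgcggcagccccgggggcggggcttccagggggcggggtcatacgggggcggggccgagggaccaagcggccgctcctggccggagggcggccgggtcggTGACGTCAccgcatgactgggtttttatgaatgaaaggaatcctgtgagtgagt
PIM1: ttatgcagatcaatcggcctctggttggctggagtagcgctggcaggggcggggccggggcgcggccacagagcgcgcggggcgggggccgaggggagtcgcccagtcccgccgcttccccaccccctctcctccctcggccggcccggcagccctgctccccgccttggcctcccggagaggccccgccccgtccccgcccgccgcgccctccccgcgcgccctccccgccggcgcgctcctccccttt

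Among the 18 genes altered in the mean RT effect, 8 were in the table, with 11 windows. A kappaB site occurred in 5 of the 11 (45.5%; CSRNP1, CXCL2, NFKBIZ and ZNF436-AS1), against 9.96% of all windows and 12.2% of those of tested genes, and a CArG box in 2 (18.2%; EGR1 and ZNF436-AS1), against 1.16% and 1.07%. Of the 18, 16 were higher after RT and 2 lower, and ZNF436-AS1 was a lower one. There were no AP-1, cyclic AMP response or TEAD motifs in these 11 windows.

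The rule for naming genes also took the 10 genes with the smallest p of the interaction in each direction, whether or not they passed. Those with the higher effect in FaDu were PIM1, CYR61, ZNF506, MXD1, DUSP1, ETV3, ZNF217, PPP1R15A, ASH1L-AS1 and C4orf36. ZNF506, a zinc finger gene, had 6, 6 and 4 counts in the SAS controls and 0, 1 and 0 after RT, so its RT effect in SAS rests on these few reads and is not given as a fold. In FaDu it had 160 to 229 counts in the controls and 152 to 243 after RT. ETV3 (an ETS family repressor) and ZNF217 (a zinc finger factor) stood apart by RT in opposite directions, higher in FaDu and lower in SAS without overlap, at differences of 0.43 ± 0.10 and 0.37 ± 0.092, neither of which passed (adjusted p 0.9999 for both). ASH1L-AS1 is an antisense transcript, and since it is not given whether counting used the strand, its value of 0.94 ± 0.26 is uncertain.

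Those with the higher effect in SAS were RNFT2, VDAC1P8, SNAI1, SNHG26, JRK, MIR222HG, NHLRC1, AC015813.6, FBXL6 and ZFP36L2, each with an adjusted p of 0.9999 in the interaction. SNAI1, a repressor of E-cadherin that drives epithelial to mesenchymal transition, stood at 2.74, 2.09 and 2.22 CPM in the FaDu controls and 2.73, 2.08 and 2.82 CPM after RT, and at 2.30, 1.48 and 1.52 CPM in the SAS controls and 4.52, 4.23 and 4.04 CPM after RT. The SAS RT libraries were all above the SAS controls, and the FaDu groups overlapped within the same low range. Its effect in SAS was 1.26 ± 0.22 (edgeR adjusted p 0.0532, and 0.0389 without FaDu RT replicate 1, range over the alternatives 5.25e-05 to 0.271), in FaDu 0.12 ± 0.21, and the difference -1.14 ± 0.31. With the block the effect in SAS was 1.27 ± 0.21 (adjusted p 0.00105), and the difference -1.15 ± 0.30 did not pass (adjusted p 0.192, range 0.192 to 1).

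SNHG26, a host gene of small nucleolar RNA, stood at 3.79, 3.12 and 4.24 CPM in the FaDu controls and 3.70, 4.85 and 3.33 CPM after RT, and at 8.02, 8.73 and 9.15 CPM in the SAS controls and 14.6, 15.7 and 17.7 CPM after RT. All SAS RT libraries were far above the SAS controls, with overlap in FaDu, and the difference was -0.81 ± 0.23. MIR222HG, the host transcript of a pair of microRNAs, stood at 4.53, 2.86 and 3.54 CPM in the FaDu controls and 1.65, 2.67 and 2.62 CPM after RT, and at 9.41, 12.5 and 12.1 CPM in the SAS controls and 21.2, 25.9 and 10.9 CPM after RT. In FaDu all RT libraries were below the controls, and in SAS replicates 1 and 2 were above and replicate 3 within the control range, for a difference of -1.42 ± 0.41. NHLRC1, a ubiquitin ligase, had only 9, 3 and 8 counts in the SAS controls and 21, 19 and 13 after RT. VDAC1P8 is a pseudogene whose reads may come from near-identical copies, and its difference was -1.07 ± 0.28.

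For JRK and FBXL6 the effect of larger size was the negative one in FaDu. JRK, a nuclear protein with a DNA-binding domain, stood at 27.5, 26.8 and 27.8 CPM in the FaDu controls and 22.2, 21.6 and 21.8 CPM after RT, and at 122, 133 and 129 CPM in the SAS controls and 123, 123 and 122 CPM after RT. The FaDu RT libraries were all below the FaDu controls, and the SAS groups overlapped. JRK fell in FaDu, by 0.33 ± 0.057 (edgeR adjusted p 0.0436), its effect in SAS was -0.057 ± 0.052, and the difference was -0.27 ± 0.077. Among the 12 fits that left out 1 library, the FaDu adjusted p stayed under 0.05 only without SAS control replicate 1 (0.0495). It was 0.181, 0.146 and 0.274 without FaDu control replicates 1, 2 and 3, and 0.0827, 0.172 and 0.204 without FaDu RT replicates 1, 2 and 3. It was 0.0698 and 0.0583 without SAS control replicates 2 and 3, and 0.0847, 0.0793 and 0.0670 without SAS RT replicates 1, 2 and 3. Over all 20 alternatives it ran from 0.00452 to 0.274. For FBXL6, an F-box protein, the effect was -0.34 ± 0.11 in FaDu and 0.12 ± 0.092 in SAS, and neither passed.

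Immediate early genes had medians above that of all genes in both lines. Of the 27 on the list, the median RT effect was 0.85 in FaDu, 0.50 in SAS and 0.47 for the difference, beside 0 in FaDu, -0.0019 in SAS and 0.0076 for the difference over all genes tested. The difference was positive for 22 of the 27, against 8815 of the 16811 genes tested, and 5 (CSRNP1, JUND, MAFF, NR4A1 and NR4A2) had an unadjusted p under 0.05 with the higher effect in FaDu, where 1.45% of all genes did. That count was 12 without FaDu RT replicate 2, 11 without FaDu RT replicate 3, 3 without SAS control replicate 2, 8 with all 24 libraries in 1 fit and 16 with no filter for low counts. With the block, 2 of the 27 (IER3 and MAFF) passed an adjusted p of 0.05 in the interaction, where 0.107% of all genes did, and 15 had an unadjusted p under 0.05 with the higher effect in FaDu and 1 in SAS. Without both FaDu libraries numbered 1 the blocked fit gave 2, 7 and 3. Unblocked, 0 passed in the interaction by edgeR or DESeq2, and 9 with no filter.

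For the RT effects of the immediate early genes themselves, 22 of the 27 had an unadjusted p under 0.05 as higher after RT in FaDu, where 2.89% of all genes did, and 8 in SAS, where 3.04% did. Without the block 3 of the 27 (CSRNP1, JUND and NR4A1) passed an adjusted p of 0.05 in FaDu, where 0.119% of all genes passed, and 0 in SAS by edgeR. DESeq2 passed 7 in FaDu and 2 in SAS, all 24 libraries in 1 fit 8 and 0, no filter for low counts 19 and 11, and leaving out both FaDu libraries numbered 1 gave 5 in each line. The 3 became 1 without FaDu control replicate 1, FaDu control replicate 2, FaDu RT replicate 2 or FaDu RT replicate 3, and 0 without FaDu control replicate 3. The 0 in SAS became 3 without FaDu RT replicate 1. The 8 at an unadjusted p in SAS became 17 without FaDu RT replicate 1, 3 without SAS control replicate 1 and 4 without SAS RT replicate 2. With the block, 20 of the 27 passed an adjusted p of 0.05 as higher in FaDu and 11 in SAS, where 1.46% and 1.54% of all genes passed in either direction. With both FaDu libraries numbered 1 left out of that fit, 17 passed in FaDu and 16 in SAS. For the mean effect without the block, 6 of the 27 passed (0.571% of all genes), 3 without FaDu control replicate 3, SAS control replicate 1 or SAS RT replicate 2, 13 with DESeq2, 11 with all 24 libraries and 22 with no filter.

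The larger median in FaDu rested in good part on FaDu RT replicate 1. The median difference of the immediate early genes was 0.14 without that library, with 17 of 27 positive, and 0.17 with both FaDu libraries numbered 1 left out, with 19 positive. EGR1, a transcription factor, stood at 94.7, 87.6 and 97.3 CPM in the FaDu controls and 755, 195 and 229.7 CPM after RT, and at 327, 382 and 804 CPM in the SAS controls and 841, 884 and 1167 CPM after RT. RT and control did not overlap in either line, but FaDu RT replicate 1 was far above the other FaDu RT libraries and SAS control replicate 3 far above the other SAS controls. The difference was 1.14 ± 0.59, and 0.25 without FaDu RT replicate 1. FOS, a subunit of AP-1, stood at 15.8, 16.8 and 18.8 CPM in the FaDu controls and 183, 28.8 and 32.9 CPM after RT, and at 11.2, 11.9 and 27.7 CPM in the SAS controls and 25.5, 24.98 and 41.3 CPM after RT. The groups overlapped in SAS only, and replicate 1 was again by far the highest FaDu RT library. The adjusted p was 0.9999, and the difference of 1.38 ± 0.81 became -0.011 without it.

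**Figure D3:**
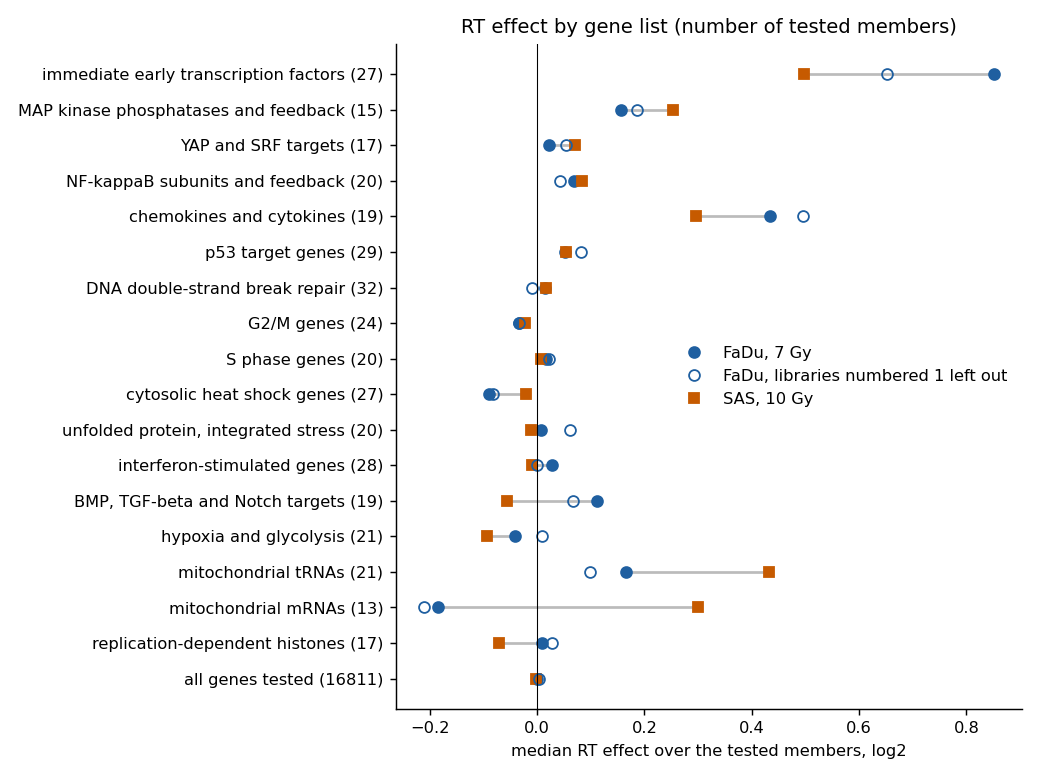
Median RT effect (log2) over the tested members of each gene list in FaDu (filled circles), in FaDu with the libraries numbered 1 left out (open circles) and in SAS (squares), with the number of tested members in parentheses. Immediate early genes lie at 0.85 in FaDu and 0.50 in SAS, and mitochondrial mRNAs at -0.19 and 0.30, whereas the lists of DNA repair, p53 targets and the cell cycle lie near 0 in both lines.

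The MAP kinase phosphatases and other feedback inhibitors (15 genes) had medians of 0.16 in FaDu, 0.25 in SAS and -0.10 for the difference. The difference was positive for 7 of the 15, and DUSP1 and DUSP8 had an unadjusted p under 0.05, DUSP1 with the higher effect in FaDu (1.45% of all genes) and DUSP8, at few counts, in SAS (1.29%). Without FaDu RT replicate 1 there were 4 towards SAS, and without FaDu control replicate 1 there were 2 towards FaDu. For the RT effects with the block, 7 of the 15 passed an adjusted p of 0.05 as higher in FaDu and 6 in SAS (1.46% and 1.54% of all genes). Without the block, 0 passed in either line by edgeR, with 5 in FaDu (2.89% of all genes) and 4 in SAS (3.04%) at an unadjusted p under 0.05 as higher, and DESeq2 passed 1 in FaDu and 0 in SAS, all 24 libraries in 1 fit 1 and 1, and no filter for low counts 6 and 4. Leaving out FaDu RT replicate 1 gave 1 in each line, and leaving out FaDu RT replicate 2 gave 1 in FaDu. The 5 became 3 without FaDu control replicate 2, 2 without FaDu control replicate 3 and 1 without FaDu RT replicate 1. In the blocked fit without both FaDu libraries numbered 1, 4 passed in FaDu and 7 in SAS. Without FaDu RT replicate 1 the median difference was -0.28, and with both FaDu libraries numbered 1 left out it was -0.11. Targets of YAP and SRF (17 of 19 tested, the others too low) had medians of 0.021 in FaDu, 0.070 in SAS and 0.054 for the difference, with AMOTL2, CYR61 and RHOB at an unadjusted p under 0.05 and the higher effect in FaDu, where 1.45% of all genes had both. DUSP1, a member of the former list, and CYR61 and RHOB, members of the latter, lay away from the medians of their lists. DUSP6, a phosphatase of ERK, stood at 17.8, 5.36 and 6.05 CPM in the FaDu controls and 32.3, 10.3 and 9.98 CPM after RT, and at 166, 186 and 152 CPM in the SAS controls and 254, 224 and 169.9 CPM after RT. Replicate 1 was the highest FaDu library with and without RT, and RT and control overlapped in both lines, although each RT library was above the control of the same number. With the block, DUSP6 rose by 0.84 ± 0.098 in FaDu (adjusted p 3.68e-06, range over the alternatives 1.49e-15 to 1) and by 0.35 ± 0.061 in SAS (adjusted p 0.00165, range 3.99e-06 to 1).

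Subunits and feedback genes of NF-kappaB (20 genes) had medians of 0.068 in FaDu, 0.084 in SAS and 0.0048 for the difference. NFKBIA, the inhibitor that NF-kappaB induces against itself, stood at 130.1, 134 and 118 CPM in the FaDu controls and 161, 177 and 181 CPM after RT, and at 62.9, 53.9 and 53.4 CPM in the SAS controls and 74.5, 99.9 and 77.4 CPM after RT. RT and control were apart in both lines, and the difference was -0.12 ± 0.15. Chemokines and cytokines (19 of 23 tested) had medians of 0.43 in FaDu, 0.30 in SAS and -0.027 for the difference. Both RT medians lay above that of all genes, but without FaDu RT replicate 1 the median was 0.24 in FaDu and -0.12 for the difference. With both FaDu libraries numbered 1 left out, these 2 medians were 0.495 and -0.023. Without the block, no member of either list reached an unadjusted p under 0.05 in edgeR's test of the interaction, where 1.45% and 1.29% of all genes had one in each direction. With the block, TNFAIP3 and ZC3H12A of the NF-kappaB list had one with the higher effect in FaDu, where 514 of 16811 genes did. CSF1 and CXCL11 of the chemokine list had one with the higher effect in SAS, where 432 genes did.

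Lists of the DNA damage response had medians near that of all genes in both lines at this time. Targets of p53 (29 genes) had medians of 0.053 in FaDu, 0.054 in SAS and 0.011 for the difference, with PLK3 and BTG2 at an unadjusted p under 0.05 and the higher effect in FaDu (1.45% of all genes). This count of 2 was 0 without FaDu control replicate 1, and 1 without any 1 of the 3 FaDu RT libraries, SAS control replicate 2, SAS control replicate 3 or SAS RT replicate 3. With the block, 3 of the 29 had an unadjusted p under 0.05 with the higher effect in FaDu (514 of 16811 genes) and 2 in SAS (432 genes). GADD45A and PLK2, 2 of the 29, passed an adjusted p of 0.05 as higher after RT in FaDu (0.119% of all genes) and in the mean effect (0.571%). The FaDu count was 0 without any 1 of the 6 FaDu libraries and 1 without SAS control replicate 3 or SAS RT replicate 3. It was 3 with DESeq2 and 1 with all 24 libraries in 1 fit. In SAS 0 of the 29 passed by edgeR, with 3 higher (3.04% of all genes) and 2 lower (492 of 16811 genes) at an unadjusted p under 0.05. The same GADD45A and PLK2 passed as higher in SAS by DESeq2, with all 24 libraries, and without FaDu control replicate 1 or FaDu RT replicate 1, and PLK2 alone without SAS RT replicate 3. With the block, 5 of the 29 passed as higher in FaDu (1.46%), and 3 as higher and 1 as lower in SAS (1.54%). PLK3, a kinase of the stress response, stood at 6.10, 7.97 and 4.86 CPM in the FaDu controls and 15.2, 11.03 and 9.70 CPM after RT, and at 32.99, 43.6 and 31.6 CPM in the SAS controls and 48.1, 46.7 and 28.97 CPM after RT. All FaDu RT libraries were above the FaDu controls, the SAS groups overlapped, and the difference was 0.73 ± 0.31 with an adjusted p of 0.9999. Genes of double-strand break repair (32) had medians of 0.014 in FaDu, 0.016 in SAS and 0.0030 for the difference. Without the block, RAD52 alone, 1 of the 32, had an unadjusted p under 0.05 in the interaction, with the higher effect in FaDu (1.45% of all genes). With the block, ATM, RAD52, RNF168 and XRCC4 had one, 3 with the higher effect in FaDu and 1 in SAS, where 514 and 432 of 16811 genes did. Genes of mitosis and its entry (24) had medians of -0.034 in FaDu, -0.022 in SAS and -0.018 for the difference, and S phase genes (20) of 0.016 in FaDu, 0.0078 in SAS and -0.0016 for the difference.

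Cytosolic heat shock genes (27) had medians of -0.089 in FaDu, -0.022 in SAS and -0.070 for the difference. With the block, 6 of them passed an adjusted p of 0.05 as lower in FaDu after RT (CHORDC1, DNAJA1, HSPA1A, HSPA1B, HSPA8 and HSPH1), where 0.452% of all genes did. Without the block, 0 of the 27 had even an unadjusted p under 0.05 in FaDu, in either direction, by edgeR or DESeq2, with RLE size factors or with all 24 libraries in 1 fit. With no filter for low counts 6 were lower and 1 higher at that p, and without both FaDu libraries numbered 1, 3 were lower. With 1 library left out, the count as lower after RT was 2 without FaDu control replicate 1, 4 without FaDu control replicate 2, 6 without FaDu RT replicate 1 and 1 without FaDu RT replicate 3. As higher it was 1 without FaDu RT replicate 2. In the blocked fit without both FaDu libraries numbered 1, 4 passed as lower. HSPH1, a co-chaperone, stood at 247, 174 and 220.2 CPM in the FaDu controls and 224, 161 and 175 CPM after RT, and at 522, 551 and 424 CPM in the SAS controls and 516, 563 and 394 CPM after RT. Each FaDu RT library was below the control of the same number while the groups overlapped, and its difference of -0.17 ± 0.22 between lines did not pass (adjusted p 0.9999). Genes of the unfolded protein and integrated stress responses (20) had medians of 0.0079 in FaDu, -0.011 in SAS and 0.067 for the difference, with PPP1R15A, 1 of the 20, at an unadjusted p under 0.05 and the higher effect in FaDu (1.45% of all genes). Interferon-stimulated genes (28) had medians of 0.027 in FaDu, -0.010 in SAS and 0.044 for the difference. IFI27, a member of that list, stood at 1780, 1708 and 1665 CPM in the FaDu controls and at under 1 CPM in every SAS library.

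Targets of BMP, TGF-beta and Notch signalling (19 of 21 tested) had medians of 0.11 in FaDu, -0.057 in SAS and 0.079 for the difference, with SMAD6 (few counts) higher in effect in FaDu (1.45% of all genes) and SNAI1 and HES1 in SAS (1.29%) at an unadjusted p under 0.05. Genes of hypoxia and glycolysis (21) had medians of -0.041 in FaDu, -0.094 in SAS and 0.082 for the difference. Without FaDu RT replicate 1 their median difference changed sign, to -0.11, and so did those of the interferon-stimulated (-0.037), repair (-0.045), NF-kappaB (-0.027) and p53 (-0.0028) lists. With both FaDu libraries numbered 1 left out, only the repair list of these changed sign, to -0.028. The hypoxia and glycolysis median was then 0.096, the interferon-stimulated one 0.025, the NF-kappaB one 0.021 and the p53 one 0.017. Replication-dependent histone genes (17 of 23 tested) had medians of 0.0082 in FaDu, -0.072 in SAS and 0.21 for the difference. With RLE size factors in place of TMM, the median difference of each list kept its sign, except that of double-strand break repair, which went from 0.0030 to -0.0010.

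Mitochondrial messengers had a median difference below that of all genes, towards SAS. The mitochondrial genome encodes subunits of the respiratory chain, transcribed as long precursors from which transfer RNAs are cut. Of 15 listed messenger and ribosomal RNA genes, the 13 messengers were tested, and the 2 ribosomal RNA genes are absent from the deposited tables. The 13 had medians of -0.19 in FaDu, 0.30 in SAS and -0.51 for the difference. The difference was negative for 12 of the 13, and 7 (MT-ATP6, MT-ATP8, MT-CO1, MT-CO2, MT-CO3, MT-ND4 and MT-ND4L) had an unadjusted p under 0.05 with the higher effect in SAS, where 1.29% of all genes did. The 7 became 4 without FaDu control replicate 2, FaDu RT replicate 1, SAS control replicate 1 or SAS RT replicate 2, 5 with DESeq2, 11 with no filter for low counts and 0 with all 24 libraries in 1 fit. With the block, MT-CO3 and MT-ND4 passed an adjusted p of 0.05, 2 of the 13, where 0.107% of all genes did. The blocked fit without both FaDu libraries numbered 1 passed 10 of the 13 (and 35 of 17230 genes in all), no filter without the block passed 9, and DESeq2 and all 24 libraries in 1 fit passed 0. With both FaDu libraries numbered 1 left out the median difference was -0.56, and without FaDu RT replicate 1 it was -0.43.

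The summed level of the 13 messengers was 18254, 24877 and 22147 CPM in the FaDu controls, 17789, 18623 and 21187 after RT, 13020, 14877 and 17716 in the SAS controls and 16648, 23234 and 16243 after RT. RT and control overlapped in both lines, and each sum holds transcripts of shared precursors, so the 13 are not independent of each other. MT-ND4 alone, a subunit of respiratory complex I, stood at 3050, 3843 and 3381 CPM in the FaDu controls and 2586, 2403 and 2903 CPM after RT, and at 1999, 2386 and 2752 CPM in the SAS controls and 2337, 3472 and 2422 CPM after RT. Its FaDu RT libraries were all below the FaDu controls, and the SAS groups overlapped. The difference was -0.59 ± 0.20 without the block (adjusted p 0.9999) and -0.57 ± 0.12 with it (adjusted p 0.0437, range over the alternatives 5.58e-09 to 1).

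**Figure D4:**
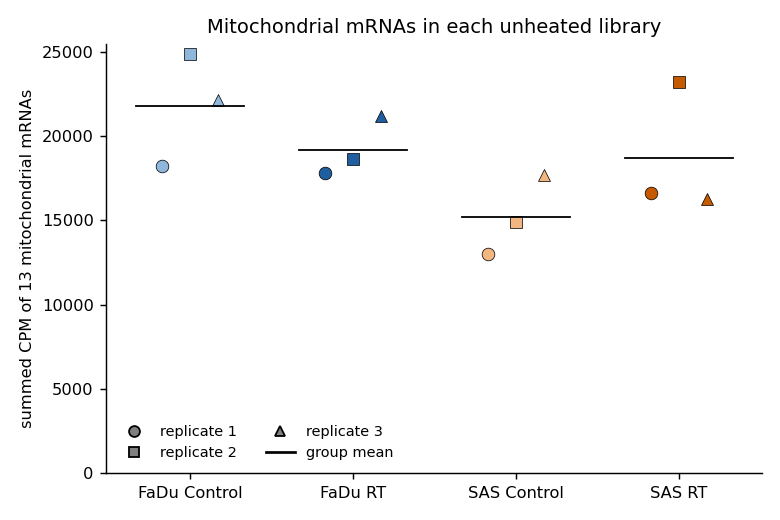
Summed CPM of the 13 mitochondrial messenger RNAs in each of the 12 unheated libraries, with replicates 1, 2 and 3 as circles, squares and triangles and a line at each group mean. The FaDu means are lower and the SAS means higher after RT, and the groups overlap, with FaDu libraries between 17789 and 24877 CPM and SAS libraries between 13020 and 23234 CPM.

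Mitochondrial transfer RNA genes (21 of 22 tested) had medians of 0.17 in FaDu, 0.43 in SAS and -0.35 for the difference, with 4 of 21 differences positive and MT-TD, MT-TL1 and MT-TT, 3 of the 21, at an unadjusted p under 0.05 with the higher effect in SAS, where 1.29% of all genes had both. Both lines had a median above that of all genes, though in FaDu it was 0.050 without FaDu RT replicate 1. MT-TT, the threonine transfer RNA, stood at 1.31, 2.55 and 2.10 CPM in the FaDu controls and 3.19, 3.25 and 5.52 CPM after RT, and at 0.962, 0.742 and 0.469 CPM in the SAS controls and 2.54, 4.60 and 3.71 CPM after RT. All RT libraries were above the controls in each line at few counts, and the difference was -1.29 ± 0.48. Its effect in SAS was 2.30 ± 0.37 (adjusted p 0.0532, but 0.0302 without FaDu control replicate 1 and 0.0192 without FaDu RT replicate 1, range over the alternatives 4.95e-11 to 0.271).

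The study lists 12 genes for RT alone in FaDu and 10 in SAS, chosen on these same libraries, so their values are no independent evidence. The 12 genes had medians of 1.32 in FaDu, 0.81 in SAS and 0.68 for the difference, and 11 of the 12 differences were positive. The 10 genes had medians of 0.80 in FaDu, 1.27 in SAS and -0.68 for the difference, and 2 of the 10 were positive. Each list thus leaned towards the line in which it was chosen, while the median effect in the other line was still above that of all genes. Of the 12, CYR61 passed in the interaction with the block. CTGF, CXCL2 and NFKBIZ are on both lists. With both FaDu libraries numbered 1 left out, the median difference of the 12 was 0.36, with 8 positive, and that of the 10 was -0.63.

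The same difference was computed in the 12 heated libraries, as RT+HT against HT in FaDu minus the same in SAS, which share no library with the unheated ones. Of 17560 genes tested, 0 (0.0%) were altered by edgeR, with 509 at an unadjusted p under 0.05, and DESeq2 called 0, with 436. With the replicate block 20 genes (0.114%) reached an adjusted p under 0.05, 12 with the higher effect in FaDu and 8 in SAS. Across 16463 genes the differences in unheated and heated spheroids correlated at -0.037, and across the 8528 with a mean log2 CPM of at least 4 at -0.037 as well, where genes are not independent replicates. Of the 10 named genes with the higher effect in FaDu, 6 had the same sign when heated, and so had 6 of the 10 with the higher effect in SAS.

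In heated spheroids the difference was 0.19 ± 0.10 for PIM1, 0.071 ± 0.11 for CYR61 and 0.30 ± 0.13 for DUSP1, each smaller than in unheated spheroids. It was -0.56 ± 0.19 for SNAI1, -0.98 ± 0.37 for MIR222HG and -1.32 ± 0.41 for VDAC1P8, which kept the sign of the unheated value. RNFT2 did not, at 0.21 ± 0.27. Of the 18 genes called with the block in unheated spheroids, 10 had the same sign in the blocked heated fit and 7 an unadjusted p under 0.05 there, where 7.52% of all genes had one, with adjusted p from 0.0513 (DUSP1) to 1. Of the 7, 6 kept the unheated sign. The median difference of the immediate early genes was 0.046 and that of the mitochondrial messengers 0.051. Whether heat changed the difference between lines was not tested.

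**Figure D5:**
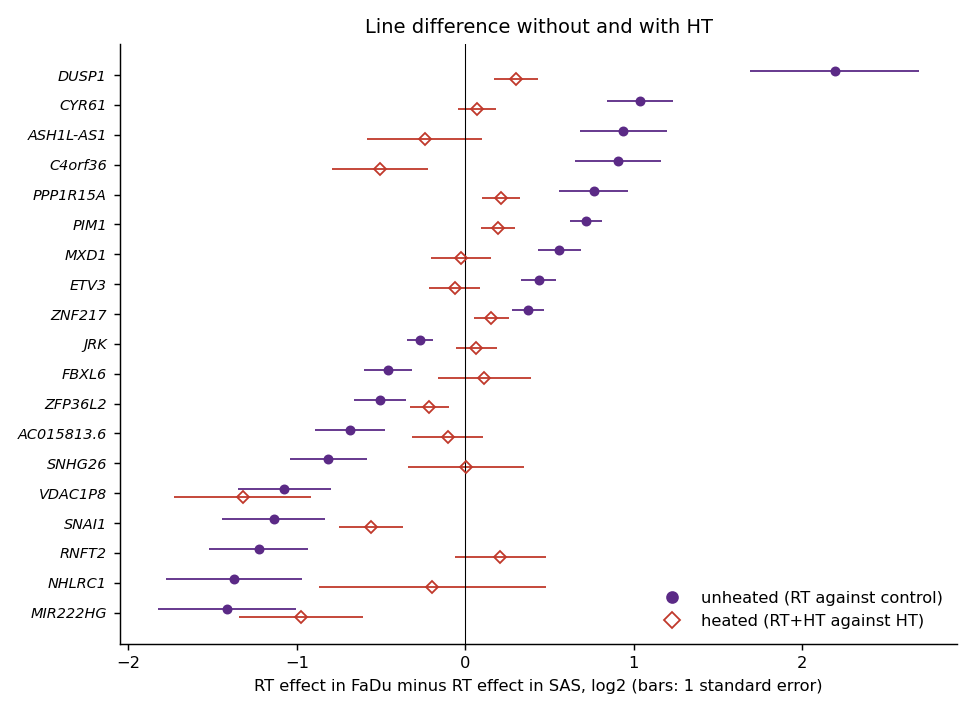
RT effect in FaDu minus RT effect in SAS (log2, bars of 1 SE) for named genes in unheated spheroids (filled circles) and heated spheroids (open diamonds). DUSP1 goes from 2.19 unheated to 0.30 heated and CYR61 from 1.04 to 0.071, whereas VDAC1P8 lies at -1.07 and -1.32.

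The precision of the interaction depended on the level of a gene. Its median SE was 0.28 for the 4336 genes with a mean log2 CPM of 1 to 4, 0.12 for the 6756 genes from 4 to 7, and 0.093 for the 1772 genes above. For 4003 of the 16811 genes tested the SE was over 0.5, so that a difference of 1 on the log2 scale lay within 2 SE there.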

How the data were processed

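RNA was sequenced by the study from FaDu and SAS spheroids in 4 conditions with 3 replicates each. The authors deposited tables of raw read counts per gene, used here, and normalized tables, not used. The aligner, counting program, genome build, annotation and use of strand are not given in the sources used here. The submitters' notes name bcl2fastq, DESeq2 and mm9, a mouse build, although the gene identifiers are human. GENCODE v29 named 56898 of 57500 identifiers. Control columns repeated between tables were identical.

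Counts of the 12 libraries were fitted together with edgeR 4.0.16 in R 4.3.3, using TMM scaling, the quasi-likelihood F test and Benjamini-Hochberg adjustment over all genes of a comparison. Genes entered if filterByExpr, with its minimum set to 10 counts, kept them. The heated libraries had a fit of their own. Altered means an absolute log2 value over 1 together with an adjusted p under 0.05. The standard error is the size of the log2 value over the square root of F. The scripts were tested on simulated data with known changes. Those data held no replicate effect and no library that stood apart, so they do not test the calls made with the block. Alternatives were DESeq2 1.42.0, all 24 libraries in 1 fit, RLE size factors, genes kept whatever their counts, genes kept only with 10 counts or more in each library, adjusted p alone, a block for replicate number within a line, and each library left out in turn. Leaving out both FaDu libraries numbered 1, with and without the block, was chosen after seeing the data. With no filter for low counts, the edgeR adjusted p in FaDu went down to 8.44e-180. That is too small to take at face value with 3 libraries per group. Calls of that setting, and the low end of a range that comes from it, carry no weight.

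The replicate numbers come from the sample labels. To check pairing, each library's deviations from its group mean were correlated across tested genes between control and RT. Same-numbered libraries all gave over 0.1. Numbers 2 and 3 of FaDu also correlated with each other (0.228 and 0.271), so in FaDu the check separates replicate 1 from the others more than it pairs each number. In SAS, libraries of the same number gave 0.19 to 0.292 and those of different number -0.232 to 0.022. Deviations from a group mean cancel out within the group. Positive values for the same number thus make those of different number negative on average, and the latter add no evidence of pairing. The block leaves 4 residual degrees of freedom against 8, with a prior of 21.5 against 6.34. With the block, the spread of a gene is thus taken mostly from other genes. Leaving out both FaDu libraries numbered 1 as well leaves fewer residual degrees of freedom still.

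The named genes were the 10 with the smallest interaction p in each direction among genes with a mean log2 CPM of at least 1, up to 10 altered genes of each RT effect, the study's RT lists, the 2 highest and 2 lowest interaction values of each list, and SMAD4. Other genes were named after their values were seen. Members and lists were chosen with earlier results of these data known. Lists are described by counts and medians, with no set test. Promoter sequences are from RefSeq.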

Additional observations from a re-analysis of the deposited data

Results flagged for a closer look

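PIM1, CYR61 and DUSP1 are given because the test of the difference between the lines itself singled them out. For PIM1, the RT effect in FaDu exceeded that in SAS by 0.72 on the log2 scale. The edgeR adjusted p was 0.0318, and in 9 of the 12 fits that left out 1 library it was over 0.05, as listed beside that gene's levels. For CYR61, the difference was 1.04 with the replicate block and had an adjusted p of 5.79e-07, against 0.871 without the block. With both FaDu libraries numbered 1 left out of the blocked fit, the CYR61 difference was 0.95, short of the log2 value of 1 that an altered gene needs. For DUSP1, it was 1.99 with the block and had an adjusted p of 3.02e-04, against 0.9999 without the block and 0.0197 without FaDu RT replicate 1. The dose was 7 Gy in FaDu and 10 Gy in SAS, so line and dose cannot be told apart for any of the 3.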

How the results depend on the processing

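The count of altered genes in the interaction was 0 with TMM, RLE size factors and at least 10 counts in every library. It was 1 with DESeq2, 1 with all 24 libraries in 1 fit, 1 with an adjusted p alone, 6 with no filter for low counts and 2 with the replicate block. Leaving out 1 library gave 0 to 1. Leaving out both FaDu libraries numbered 1 gave 1, with or without the block.

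For the RT effect in FaDu (6 altered genes), DESeq2 gave 13, no filter 28, all 24 libraries 12, an adjusted p alone 20 and the block 29, or 16 with the FaDu libraries numbered 1 left out as well. Leaving out 1 library gave 1 to 7. For SAS (0), DESeq2 gave 8, no filter 28, all 24 libraries 8 and the block 27. Leaving out the FaDu libraries numbered 1 gave 9, and 48 with the block. Leaving out 1 library gave 0 to 8. For the mean effect (18), DESeq2 gave 32, no filter 53, at least 10 counts in every library 11, an adjusted p alone 96 and the block 47, or 45 with the FaDu libraries numbered 1 left out as well. Leaving out 1 library gave 7 to 17. In heated spheroids (0), the count was 2 with the block and the FaDu libraries numbered 1 left out, FICD and KLF6, and 0 otherwise, leaving out 1 library included (0 to 0). The causes were not tested.

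Of the single values of the 20 genes named for the interaction under the alternatives, 388 kept their direction and stayed short of altered (adjusted p and log2 value together), and 10 kept their direction and were altered. The adjusted p alone crossed 0.05 more often, as for PIM1, where it was under 0.05 in 11 of 20 alternatives. The data are 2 lines at different doses, at 1 time point, with 3 libraries per group, 1 of which stands apart in each FaDu group. They cannot separate line from dose. Genes with few counts, antisense transcripts and pseudogenes are uncertain. The study compared its PCR arms with controls by a paired test, and kept control plates alongside the heated ones. For the sequencing it names a Wald test and no pairing, and does not say whether equal numbers share an experiment. The values that rest on the block depend on that.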
